A study of Homo sapiens with 12 samples.

Results

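Phosphodiesterases that break down cyclic AMP (cAMP) were examined in the human ovarian cancer cell line HEYA8 after 48 h with colforsin daropate. The genes PDE3A, PDE3B, PDE4A, PDE4B, PDE4D, PDE7A, PDE7B, PDE8A, PDE10A and PDE11A were chosen by name, with earlier results of these data known. These genes were found by their Ensembl identifiers, 10 of 21207 genes in the deposited table, and all 10 passed the filter on low values. The 4 groups were vehicle and colforsin daropate at 1, 5 and 10 µM, each with 3 libraries of ribosome-depleted total RNA, and all cells were grown in the same serum-containing medium. The study's design text calls the 3 libraries biological replicates. They carry the numbers 6, 8 and 11 in every group, and the labels do not say what these mark. HEYA8 is 1 line kept in culture, so the replicates are cultures of 1 genetic background. The study's title concerns MYC-driven high-grade serous ovarian carcinoma.

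Colforsin daropate was made from forskolin, a plant product that switches on adenylyl cyclase, the enzyme that forms cAMP, and unlike forskolin it dissolves in water. Phosphodiesterases hydrolyse cAMP to AMP and so end the signal. In many cell types cAMP itself, acting through protein kinase A and CREB, raises the transcription of some phosphodiesterase genes, a negative feedback best known for the PDE4 family. The families differ in substrate: PDE4, PDE7 and PDE8 hydrolyse cAMP, while PDE3, PDE10 and PDE11 accept cAMP and cGMP.

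The values of genes are those the authors stabilised for variance, on a log2 scale that flattens towards the lowest value in the table, 4.86. A difference on this scale is therefore smaller than the log2 fold for genes with few reads. Values of 10 or more were deposited in steps of 0.1. Normalised counts and reads recovered from these values are given beside them where they help. Depth on genes was 24.0 to 48.6 megareads per library, lowest in vehicle library 6. Of 9 markers of ovarian carcinoma cells 8 were in the table, PAX8 at 12.5 to 13.6 and KRT18 at 13.6 to 14.9, but EPCAM at 5.45 to 5.72 and KRT19 at 4.86 to 5.94 lay near the lowest value. Of 5 leukocyte markers 2 were in the table, with summed counts of 9.85 to 20.9 at 10 µM and 12.6 to 19.0 in vehicle, and 0 of 3 erythroid markers were. Of 4 endothelial markers 4 were present, with summed counts of 3880 to 4440 at 10 µM and 1880 to 7920 in vehicle, mostly CDH5 at 10.8 to 13.1. Of 5 fibroblast markers 2 were present, and their summed counts of 284 to 1310 at 10 µM and 28.9 to 137 in vehicle moved with dose through COL1A1. The part of these genes in the results below was not tested. In bulk RNA fewer cells that express a gene and less of its RNA per cell cannot be told apart.

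PDE4B, PDE4D, PDE3A, PDE8A and PDE7B were higher at 10 µM than in vehicle, and PDE11A was lower. PDE4B increased 7.38-fold and PDE4D 2.35-fold in normalised counts, and PDE3A, which was near the lowest value in vehicle, 40.7-fold (24.4-fold without 10 µM library 6). PDE7A, PDE10A, PDE4A and PDE3B did not pass the test at any dose in the fit of all 12 libraries without the label number. With the label number as a block, PDE7A and PDE10A were also higher at 10 µM and PDE4A was lower at 5 µM. At 10 µM the PDE4 and PDE3 families each held members that did and members that did not pass, with and without the block. PDE11A entered the test only through the vehicle libraries, and PDE3A only through the treated ones, so these genes had to differ to be tested. PDE7B likewise passed the filter only with the 5 and 10 µM libraries, being above it in 1 vehicle library and 1 library at 1 µM.

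In limma's test across 17767 genes, with Benjamini-Hochberg adjustment and a threshold of 0.05, 5 of the 10 genes were higher at 10 µM and 1 was lower, against 11.2% of all genes called higher and 11.4% called lower. At 5 µM 4 were higher (PDE3A, PDE4B, PDE4D and PDE8A) and 1 lower (PDE11A), against 7.67% and 7.44% of all genes. At 1 µM 1 was higher (PDE4B) and 1 lower (PDE11A), against 1.18% and 0.613%. These counts include PDE3A and PDE11A, which had to differ to be tested, and PDE11A was the only lower call. PDE7B, called higher at 10 µM and with the block at all 3 doses, likewise passed the filter only with the 5 and 10 µM libraries. A stricter filter (3 above the lowest value) left PDE3A, PDE3B, PDE7B and PDE11A untested. At 10 µM 3 were then higher and 0 lower, and with no filter 5 were higher and 1 lower. The shares of all genes given here belong to the main filter. The median difference of the 10 genes was 0.27, 0.42 and 0.47 at 1, 5 and 10 µM, and the median over all genes tested was 0.00 at each dose. Because the 10 genes were chosen with earlier results of these data known, the comparisons with all genes are descriptions. Of cAMP-hydrolysing genes outside the 10, PDE2A was lower at 10 µM (-1.37, limma adjusted p = 0.00369), and PDE1C and PDE8B did not pass. A fit with the label number as a block gave 5 higher and 1 lower at 1 µM, where it called 6.76% and 5.26% of all genes. It gave 7 higher and 2 lower at 5 µM (15.3% and 15.3% of all genes) and 7 higher and 1 lower at 10 µM (18.7% and 19.7%). For any difference among the 4 groups, limma called 5 of the 10 genes (PDE3A, PDE4B, PDE4D, PDE8A and PDE11A) against 14.8% of all genes, and with the block 7 against 33.7%, adding PDE7A and PDE7B. Without the libraries of number 8, or without those of number 11, 2 of the 10 genes were higher at 10 µM, where limma then called 1.95% and 2.63% of all genes higher. These 2 fits called 4 and 2 of all genes at 1 µM, 137 and 205 at 5 µM and 599 and 962 at 10 µM. The full fit called 319, 2684 and 4015. Losing a call without number 8 or 11 was thus common to most called genes and is not particular to those named below.

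**Figure D1:**
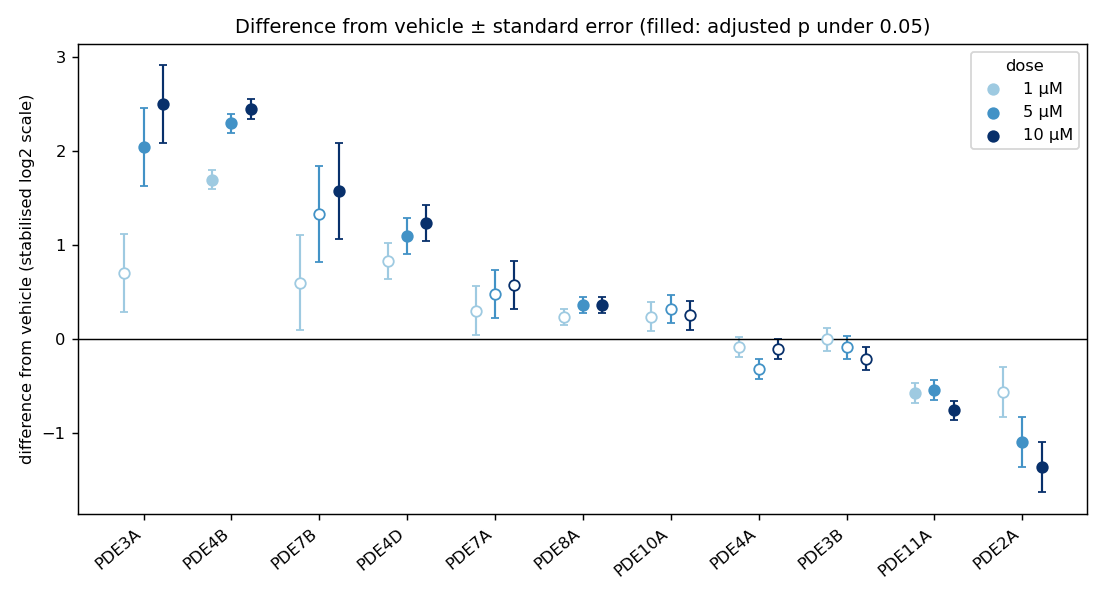
Difference from vehicle on the stabilised log2 scale (vertical axis, ± standard error) at 1, 5 and 10 µM for the 10 phosphodiesterase genes and PDE2A, with 3 libraries per group. Filled points passed limma's test without the block, and PDE4B and PDE11A were filled at all 3 doses.

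PDE4B (ENSG00000184588, chromosome 1, 65792514 to 66374579, plus strand, GRCh38) encodes a cAMP-specific enzyme that is induced by cAMP in several cell types. In libraries 6, 8 and 11 it was at 7.40, 7.61 and 7.39 in vehicle, 9.19, 9.11 and 9.19 at 1 µM, 9.85, 9.72 and 9.72 at 5 µM, and 10.1, 9.75 and 9.90 at 10 µM. Every treated library lay above every vehicle library, and the 1 µM libraries lay below all those at 5 and 10 µM. The normalised count averaged 124 ± 15.2 in vehicle, and with 1, 5 and 10 µM it averaged 517 ± 18.1, 813 ± 45.9 and 914 ± 119 (SD, n = 3 each). PDE4B rose by 1.70 ± 0.10 at 1 µM (SE; limma adjusted p = 1.24e-05), 2.30 at 5 µM (3.07e-07) and 2.45 at 10 µM (1.48e-07), in 3 of 3 label numbers each time. The count fold was 4.17, 6.56 and 7.38 at the 3 doses. Without the libraries of number 11 the difference at 1 µM was 1.65 with adjusted p = 0.0511.

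PDE4D (ENSG00000113448, chromosome 5, 58969038 to 60522120, minus strand) encodes the long and short PDE4D isoforms, some of which protein kinase A phosphorylates and activates. It was the most abundant of the 10 genes. In libraries 6, 8 and 11 it was at 11.7, 12.1 and 12.2 in vehicle, 12.4, 13 and 13.1 at 1 µM, 12.8, 13.2 and 13.3 at 5 µM, and 13.2, 13.2 and 13.3 at 10 µM. All treated libraries were above all vehicle libraries, and number 6 was the lowest in vehicle and at 1 and 5 µM. PDE4D rose by 1.10 ± 0.19 at 5 µM (limma adjusted p = 0.00299) and by 1.23 at 10 µM (0.000951), folds of 2.16 and 2.35 in normalised counts. At 1 µM the difference was 0.83 with adjusted p = 0.0514, and the block gave 0.000249. The call at 5 µM was lost without number 8 (adjusted p = 0.128) or number 11 (0.0786), and that at 10 µM without number 8 (0.0568). The deposited values are per gene, so the isoforms cannot be told apart, and 227 exon bases lie opposite the gene PART1, which was not analysed here.

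PDE4A (ENSG00000065989, chromosome 19, 10416773 to 10469631, plus strand), another cAMP-specific enzyme of the family, did not pass at any dose in the fit of all 12 libraries without the block. Its values in libraries 6, 8 and 11 were 8.14, 7.96 and 7.96 in vehicle, 7.98, 7.87 and 7.96 at 1 µM, 7.75, 7.67 and 7.69 at 5 µM, and 8.09, 7.91 and 7.74 at 10 µM. The 5 µM libraries lay below all 3 vehicle libraries, while those at 10 µM overlapped vehicle. The differences were -0.08 at 1 µM, -0.32 at 5 µM (limma adjusted p = 0.0657, with the block 0.0192) and -0.11 at 10 µM (0.515). The difference at 5 µM passed without the block after quantile normalisation (0.0471) and without 10 µM library 6 (0.0426).

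PDE3A (ENSG00000172572, chromosome 12, 20369245 to 20684381, plus strand) encodes a cAMP-hydrolysing enzyme inhibited by cGMP. In libraries 6, 8 and 11 it was at 5.53, 5.53 and 5.40 in vehicle, 6.6, 5.94 and 6.03 at 1 µM, 8.49, 7.08 and 7.02 at 5 µM, and 8.86, 7.38 and 7.73 at 10 µM. The vehicle libraries held 4, 7 and 5 reads and those at 10 µM held 333, 117 and 163. The treated groups did not overlap vehicle, and number 6 was the highest in each treated group. PDE3A rose by 2.04 ± 0.41 at 5 µM (limma adjusted p = 0.00697) and by 2.50 at 10 µM (0.00145), and at 1 µM the difference was 0.70 (0.453, with the block 0.0761). The count folds of 5.06, 27.8 and 40.7 at 1, 5 and 10 µM rest on those few vehicle reads. Without library 6 of the treated group they were 3.33, 14.5 and 24.4, and without all libraries of number 6 they were 3.57, 15.5 and 26.1, values added after the data were seen. PDE3A passed the filter through the treated libraries alone, and with no filter its adjusted p-values in limma were 0.00704 for 5 µM and 0.00143 for 10 µM. Without the libraries of number 6 the differences were 0.52 (adjusted p = 0.0484), 1.58 (0.000347) and 2.09 (8.99e-05). The call at 5 µM was lost without number 8 (0.108) or number 11 (0.121), and that at 10 µM without number 11 (0.0518). PDE3A shares 404 exon bases with PDE3A-AS1 on the opposite strand. That gene was at 6.02, 5.32 and 5.45 at 10 µM and 4.86, 4.86 and 5.21 in vehicle, and since the strand setting of the counting was not given, reads of the pair cannot be told apart.

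PDE3B (ENSG00000152270, chromosome 11, 14643723 to 14872044, plus strand), the other member of that family, passed at no dose, with or without the block. It was at 7.49, 7.53 and 7.67 in vehicle libraries 6, 8 and 11, 7.59, 7.49 and 7.60 at 1 µM, 7.46, 7.45 and 7.52 at 5 µM, and 7.08, 7.42 and 7.56 at 10 µM. Each treated group overlapped vehicle, and 10 µM library 6 was the lowest of all 12. The differences were 0.00, -0.09 and -0.21 at 1, 5 and 10 µM, with a limma adjusted p of 0.245 at 10 µM (0.139 with the block).

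PDE7B (ENSG00000171408, chromosome 6, 135851696 to 136195574, plus strand) encodes a cAMP-specific enzyme with a high affinity for its substrate. In libraries 6, 8 and 11 it was at 6.15, 5.12 and 5.62 in vehicle, 7.17, 5.84 and 5.68 at 1 µM, 7.82, 6.61 and 6.46 at 5 µM, and 8.13, 6.52 and 6.97 at 10 µM. Its reads numbered 16, 1 and 10 in vehicle and 184, 44 and 76 at 10 µM. Number 6 was the highest in all 4 groups, and vehicle library 6 lay above the 1 µM libraries 8 and 11. In vehicle and at 1 µM only library 6 was more than 1 above the lowest value, so PDE7B passed the filter only with the 5 and 10 µM libraries. PDE7B rose by 1.58 ± 0.51 at 10 µM (limma adjusted p = 0.0439, with the block 1.83e-05), in 3 of 3 label numbers. At 5 µM the difference was 1.33 (0.103, with the block 1e-04) and at 1 µM 0.60 (0.629, with the block 0.0378). The call at 10 µM without the block was lost when 1 library was left out, namely vehicle 8 (0.148) or 11 (0.0985), 1 µM library 8 (0.0546), 5 µM library 8 (0.0579) or 11 (0.0505), or 10 µM library 6 (0.165) or 11 (0.0737). It was also lost without number 8 (0.206) or 11 (0.208) and held without number 6 (1.38, adjusted p = 0.00296). PDE7B shares 452 exon bases with the antisense gene PDE7B-AS1, which was at 8.22, 7.46 and 7.48 at 10 µM and 7.04, 8.19 and 8.08 in vehicle (difference -0.05, adjusted p = 0.926).

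PDE7A (ENSG00000205268, chromosome 8, 65717510 to 65842322, minus strand), its abundant relative, was at 10.0, 9.68 and 9.59 in vehicle libraries 6, 8 and 11, 10.6, 9.76 and 9.82 at 1 µM, 10.6, 10.1 and 10.0 at 5 µM, and 10.8, 10.2 and 10.0 at 10 µM. Each treated library was above the vehicle library of its own number, but the groups overlapped at every dose because vehicle library 6 was at or above the treated library of number 11. The differences were 0.30 at 1 µM (limma adjusted p = 0.629, with the block 0.0495), 0.48 at 5 µM (0.251, with the block 0.00188) and 0.58 at 10 µM (0.134, with the block 0.00036). Without number 6 they were 0.42 at 5 µM (0.0106) and 0.46 at 10 µM (0.00543). PDE7A shares 116 exon bases with MTFR1 on the opposite strand, which fell by 0.27 at 10 µM (adjusted p = 0.0237).

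PDE8A (ENSG00000073417, chromosome 15, 84980440 to 85139145, plus strand) encodes a cAMP-specific enzyme of high affinity that the general inhibitor IBMX does not block. It was at 10.2, 10.2 and 10.3 in vehicle libraries 6, 8 and 11, 10.4, 10.4 and 10.6 at 1 µM, 10.5, 10.6 and 10.7 at 5 µM, and 10.6, 10.5 and 10.7 at 10 µM. All treated libraries were above all vehicle libraries, by at least 1 rounding step of 0.1. PDE8A rose by 0.37 ± 0.09 at both 5 µM (limma adjusted p = 0.0144) and 10 µM (0.01), a fold of 1.31 in normalised counts. At 1 µM the difference was 0.23 (0.204, with the block 0.0271). The call at 5 µM was lost without vehicle 8 (0.0557), 5 µM library 11 (0.0582), number 8 (0.241) or number 11 (0.133), and that at 10 µM without number 8 (0.132) or number 11 (0.0827).

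PDE10A (ENSG00000112541, chromosome 6, 165327287 to 165988078, minus strand) encodes a dual-substrate enzyme best known from the striatum of the brain. It was at 9.99, 9.69 and 9.75 in vehicle libraries 6, 8 and 11, 10.1, 10.1 and 9.94 at 1 µM, 10.4, 10.0 and 9.99 at 5 µM, and 10.4, 9.86 and 9.93 at 10 µM. Each treated library was above the vehicle library of its number, and the groups overlapped at 1, 5 and 10 µM. The differences were 0.24 (limma adjusted p = 0.505, with the block 0.108), 0.32 (0.194, with the block 0.0172) and 0.25 (0.266, with the block 0.0407). Without number 6 they were 0.30 (0.0367), 0.28 (0.0243) and 0.18 (0.0916).

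PDE11A (ENSG00000128655, chromosome 2, 177623252 to 178072755, minus strand), a dual-substrate enzyme, was the gene of the 10 called lower without the block. In libraries 6, 8 and 11 it was at 6.19, 6.20 and 6.21 in vehicle, 5.54, 5.65 and 5.68 at 1 µM, 5.81, 5.61 and 5.55 at 5 µM, and 5.45, 5.55 and 5.32 at 10 µM. Its reads numbered 17, 30 and 33 in vehicle and 4, 7 and 3 at 10 µM. All treated libraries were below all vehicle libraries. PDE11A fell by 0.58 ± 0.10 at 1 µM (limma adjusted p = 0.0181), 0.54 at 5 µM (0.00514) and 0.76 at 10 µM (0.000469), with count ratios to vehicle of 0.31, 0.344 and 0.18 that rest on few reads. It passed the filter through the 3 vehicle libraries alone, so it had to be higher there to be tested. With no filter limma gave adjusted p = 0.0191, 0.00572 and 0.000493 at the 3 doses. The call at 1 µM was lost without vehicle 8 (0.0823) or 11 (0.0767), without 1 µM library 6 (0.0696), 8 (0.0688) or 11 (0.0573), and without number 8 (0.6) or 11 (0.358). At 5 µM it was lost without number 8 (0.162) or 11 (0.137). A second gene model of the same name shares 3228 exon bases with it on the same strand in GENCODE 29, so its count is uncertain.

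**Figure D2:**
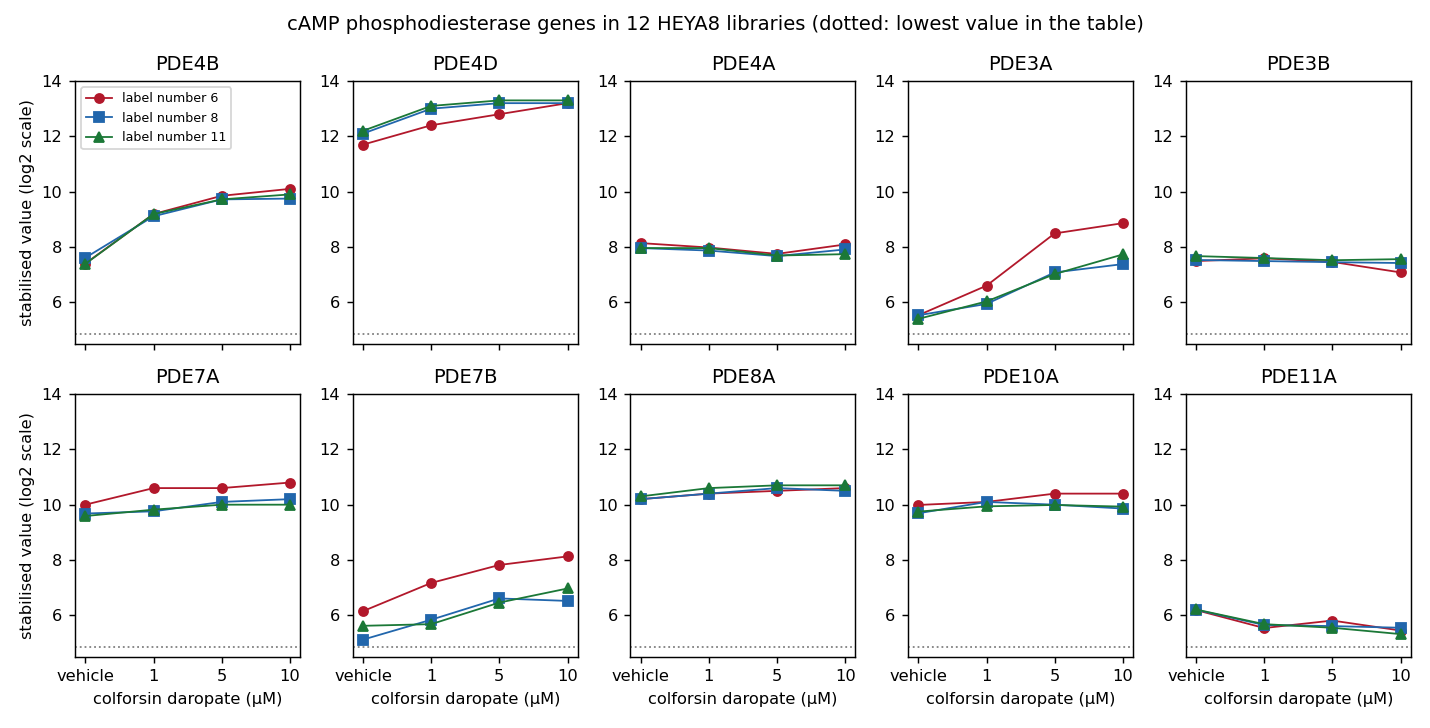
Stabilised value (vertical axis, log2 scale) of the 10 phosphodiesterase genes against dose, with 1 line per label number and the lowest value of the table, 4.86, as a dotted line. PDE4B and PDE4D climbed in all 3 numbers, PDE3A and PDE7B reached their highest values in number 6, and PDE11A approached the dotted line in all treated libraries.

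With the lowest value of the table at 4.86 and a margin of 1, 3 of the 10 genes were near it. PDE11A was within the margin in 9 of 12 libraries, all of them treated, PDE7B in 4 of 12 (vehicle and 1 µM libraries 8 and 11) and PDE3A in 3 of 12, the vehicle libraries. The other 7 genes were above the margin in all 12 libraries, with at least 68 reads for PDE3B and at least 2100 for PDE4D.

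The steps between doses were tested next. From 1 to 5 µM PDE4B alone of the 10 genes rose further (0.60 ± 0.10, limma adjusted p = 0.0339), against 0.191% of all genes called higher and 0.118% called lower. The block added PDE3A (1.34, adjusted p = 0.00758) and PDE7B (0.73, 0.028), calling 2.51% of all genes higher and 2.68% lower. Leaving out 1 library ended the call of PDE4B for vehicle 11 (0.0583), for 1 µM libraries 6, 8 and 11 (0.0981, 0.187 and 0.134), for 5 µM libraries 6, 8 and 11 (0.182, 0.121 and 0.102) and for 10 µM library 11 (0.0695). It was also lost without number 8 (0.977) or 11 (0.789), where limma called 0 of all genes. From 1 to 10 µM PDE4B rose by 0.75 (adjusted p = 0.00328) and PDE3A by 1.80 (0.0332), against 2.17% of all genes called higher and 2.54% lower. The block added PDE4D (0.40, adjusted p = 0.0132) and PDE7B (0.98, 0.00225), calling 9.46% of all genes higher and 11.4% lower. The step of PDE4B was lost without number 8 (0.188) or 11 (0.18), where limma called 0 of all genes. That of PDE3A was lost without vehicle 8 (0.0518), 1 µM library 6 (0.0512), 8 (0.131) or 11 (0.101), 10 µM library 6 (0.116) or 11 (0.0601), number 8 (0.387) or number 11 (0.264). Between 10 and 5 µM limma called 0 of the 10 genes and 0% of all genes. Without the block, limma had 601 of 17767 genes at an unadjusted p under 0.05. That share is below the 0.05 that such a limit passes on average when no gene differs. With the block 1652 genes were under it and 1 gene was called after adjustment (0.00563% of all). That gene was ALOX5AP, named after its value was seen and not among the 10.

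The genes differed in how much of their 10 µM difference was present at 1 µM, which is given as a description. On the stabilised scale PDE4B had 69.3% of it at 1 µM and 93.7% at 5 µM, and PDE4D 67.6% and 89.2%. PDE3A had 28.1% and 81.6%, and PDE7B 38.1% and 84.6%. In normalised counts, which do not flatten at low levels, the share at 1 µM was 49.7% for PDE4B, 60.4% for PDE4D, 10.2% for PDE3A and 26.4% for PDE7B. Without number 6, an alternative added after the data were seen, the share in counts was 53.1% for PDE4B, 75.7% for PDE4D, 10.2% for PDE3A and 13.3% for PDE7B.

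Promoter windows of RefSeq (GRCh38.p14), from 250 bases before to 50 bases after an annotated start, were found for 8 of the 10 genes, 30 windows in all. PDE3B and PDE7A had none. They were searched on both strands for the letters of the cAMP response element, TGACGTCA, and of its shorter form, TGACG, every full match also holding the short form on each strand. The full element was in 2 of the 30 windows and in 1.85% of 35116 windows of the whole table. The short form was in 3 of the 30 windows and in 24.6% of all. These 3 windows are printed because they are the ones with a match, 5′ to 3′ on the strand of the gene with the matched letters in capitals.
PDE7B, chr6:135851451-135851750, plus strand: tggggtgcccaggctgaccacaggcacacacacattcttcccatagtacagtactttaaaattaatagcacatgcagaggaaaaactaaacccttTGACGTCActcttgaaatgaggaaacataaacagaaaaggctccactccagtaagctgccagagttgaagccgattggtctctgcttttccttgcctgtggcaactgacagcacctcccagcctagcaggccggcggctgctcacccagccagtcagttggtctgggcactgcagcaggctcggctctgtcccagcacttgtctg
PDE4D, chr5:59587576-59587875, minus strand: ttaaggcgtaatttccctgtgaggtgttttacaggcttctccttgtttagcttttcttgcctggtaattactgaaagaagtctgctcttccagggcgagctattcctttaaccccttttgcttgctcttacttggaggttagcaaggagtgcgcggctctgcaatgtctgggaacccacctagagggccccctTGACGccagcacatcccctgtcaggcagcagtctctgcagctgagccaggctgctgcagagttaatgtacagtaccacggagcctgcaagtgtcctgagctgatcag
PDE4A, chr19:10416523-10416822, plus strand: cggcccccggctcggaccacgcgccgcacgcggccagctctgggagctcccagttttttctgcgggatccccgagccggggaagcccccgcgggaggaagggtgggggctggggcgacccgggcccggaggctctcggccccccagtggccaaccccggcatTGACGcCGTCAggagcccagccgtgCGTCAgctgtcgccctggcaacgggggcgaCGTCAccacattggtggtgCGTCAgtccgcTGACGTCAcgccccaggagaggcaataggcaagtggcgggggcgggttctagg
In PDE7B the full element began 155 bases before the start. In PDE4A it began 3 bases before the start and the short form was matched 7 times in all. The PDE4D window, 1 of 8 of that gene, held the short form 57 bases before the start. None of the 6 windows of PDE4B, the 1 of PDE3A, the 3 of PDE8A, the 2 of PDE10A or the 4 of PDE11A held these letters. The PDE3A window lay 203 kilobases inside the gene from its 5′ end in GENCODE 29, the nearest PDE10A window 325 kilobases and the nearest PDE4D window 25.8 kilobases, so those 5′ ends were not searched here. A match is a run of letters and not a measured site, and the values are per gene, so they do not tell which start was used.

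Levels of different genes were compared per length, as normalised count per kilobase of exon in GENCODE 29. The length was the union of all annotated exons of a gene, which is at least as long as any single transcript. PDE10A and PDE7A averaged 844 and 814 normalised counts in vehicle, but their lengths were 22022 and 7425 bases. The order, sums and shares below depend on these lengths, and which isoforms were expressed is not known. For this the other cAMP-hydrolysing phosphodiesterases were added, of which 3 of 6 listed were in the table. These were PDE2A, an enzyme that cGMP stimulates to hydrolyse cAMP, the calmodulin-dependent PDE1C, and PDE8B. In vehicle PDE2A was the highest at 637 ± 234 per kilobase (SD, n = 3), followed by PDE4D at 250 ± 44.3, PDE8A at 145 ± 6.18, PDE7A at 110 ± 18.1, PDE10A at 38.3 ± 4.61, PDE4A at 30.9 ± 2.84, PDE4B at 14.3 ± 1.76 and PDE3B at 11.6 ± 1.05. The ranges of these 8 genes did not overlap between neighbours. PDE1C, PDE8B, PDE11A, PDE7B and PDE3A lay between 0.663 and 3.86 and overlapped their neighbours in that order.

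At 10 µM the order was PDE4D (587 ± 23.9 per kilobase), PDE2A (234 ± 58.5), PDE8A (190 ± 13.7), PDE7A (171 ± 54.0), PDE4B (106 ± 13.8), PDE10A (46.7 ± 10.5), PDE4A (28.2 ± 4.36), PDE3A (27.0 ± 18.9), PDE7B (19.1 ± 16.4), PDE3B (9.57 ± 2.25), PDE1C (3.13), PDE8B (2.71) and PDE11A (0.395). PDE2A, PDE8A and PDE7A overlapped as neighbours, as did PDE4A, PDE3A, PDE7B and PDE3B, and PDE1C and PDE8B. PDE4D and PDE4B were apart from their neighbours. At 1 µM PDE4D (454 ± 111) and PDE2A (407 ± 57.9) overlapped, and at 5 µM PDE4D (541 ± 94.9) lay above PDE2A (278 ± 33.1) in every library.

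**Figure D3:**
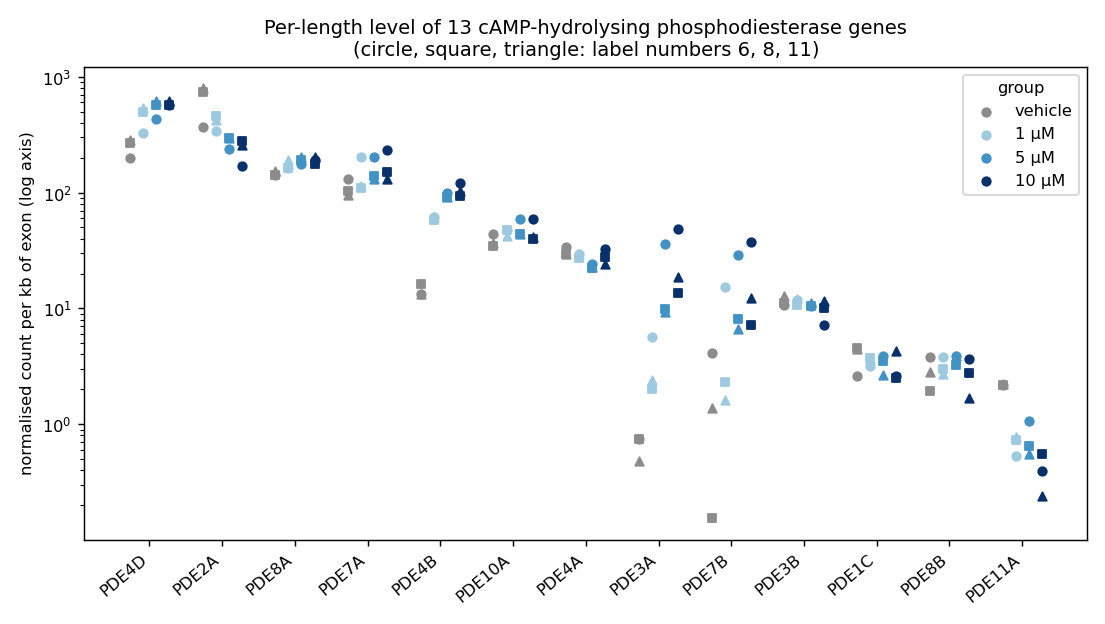
Normalised count per kilobase of exon (vertical axis, log axis) of 13 phosphodiesterase genes in 12 libraries, by group from vehicle to 10 µM, with 1 marker shape per label number. PDE4D averaged 587 and PDE2A 234 at 10 µM, against 250 and 637 in vehicle, and the markers of PDE3A and PDE7B spread the most between label numbers.

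PDE2A (ENSG00000186642, chromosome 11, 72576141 to 72674591, minus strand) is named because the order turns on it. In libraries 6, 8 and 11 it was at 11.4, 12.4 and 12.5 in vehicle, 11.3, 11.7 and 11.6 at 1 µM, 10.8, 11.1 and 11.1 at 5 µM, and 10.3, 11 and 10.9 at 10 µM. Library 6 was the lowest in all 4 groups, and vehicle and treated libraries did not overlap at 5 or 10 µM. PDE2A fell by 1.10 ± 0.27 at 5 µM (limma adjusted p = 0.0169) and by 1.37 at 10 µM (0.00369), with count ratios to vehicle of 0.437 and 0.368. At 1 µM the difference was -0.57 (0.334, with the block 0.0144), and without vehicle 6 it was -0.92 (0.0262). The call at 5 µM was lost with 2 groups only (0.0627) and without vehicle 8 (0.072) or 11 (0.0695), 5 µM library 6 (0.0624), number 8 (0.247) or number 11 (0.244), and that at 10 µM without number 8 (0.0939) or 11 (0.0923). From 1 to 5 µM and from 1 to 10 µM the differences of -0.53 (0.533, with the block 0.0346) and -0.80 (0.109, with the block 0.00147) passed with the block. PDE2A-AS2, which fell by 1.24 at 10 µM (adjusted p = 0.00186), shares 230 exon bases with PDE2A on the opposite strand, and with the strand setting not given reads of the pair cannot be told apart. PDE1C and PDE8B did not pass at any dose (-0.16 and -0.03 at 10 µM). PDE8B shares 2889 exon bases with the gene model AC022414.1 on the same strand and 383 with WDR41 on the opposite strand. Its count is therefore uncertain.

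Summed over the 13 genes, the per-length level was 1370 to 1470 at 10 µM and 956 to 1440 in vehicle, and these ranges overlapped. By label number the sum in vehicle and at 10 µM was 956 and 1470 in number 6, 1360 and 1370 in number 8, and 1440 and 1430 in number 11. Without PDE2A, PDE1C and PDE8B, the sum over the 10 genes ranged over 581 to 629 in vehicle, and with 1, 5 and 10 µM over 865 to 987, 1070 to 1130 and 1090 to 1300. PDE4D made up 38.9% to 43.1% of the 13-gene sum at 10 µM and 19.6% to 21% in vehicle. PDE2A made up 11.4% to 20.2% at 10 µM and 38.5% to 55.6% in vehicle. PDE4B made up 6.76% to 8.16% at 10 µM and 0.923% to 1.40% in vehicle, while PDE3A made up at most 3.30% at 10 µM. Levels of RNA say nothing of the activity of the enzymes.

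**Figure D4:**
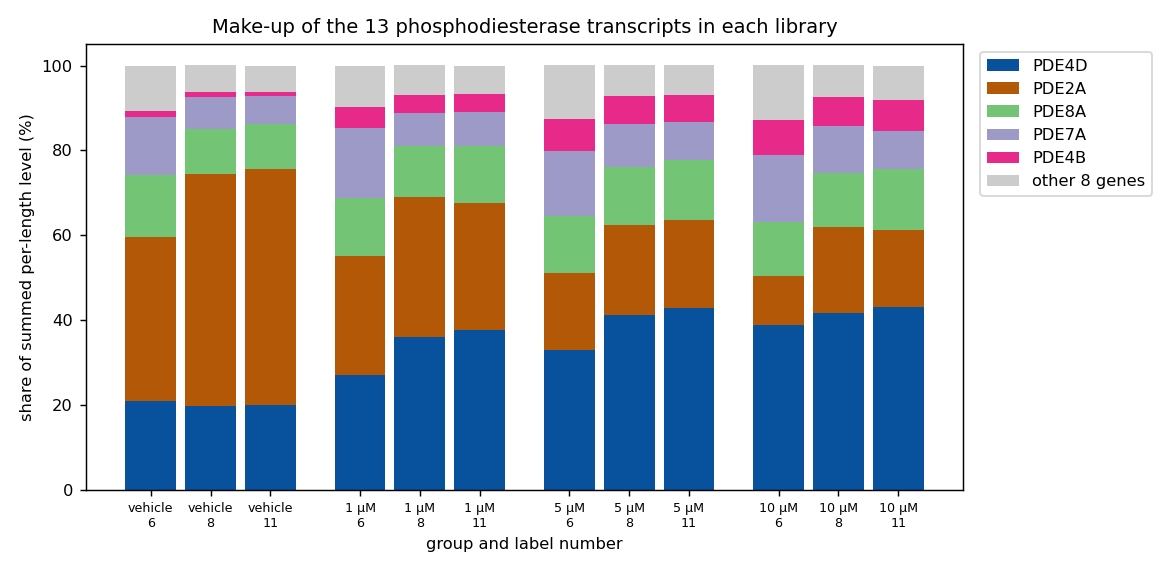
Share of the summed per-length level of 13 phosphodiesterase genes (vertical axis, %) in each of 12 libraries, grouped from vehicle to 10 µM and labelled by number. The PDE4D part grew to 38.9% to 43.1% at 10 µM, against 19.6% to 21% in vehicle, as the PDE2A part shrank.

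The label numbers moved with several of these genes. Among the 3 libraries of a group, number 6 had the highest value in 4 of 4 groups for PDE4A, PDE7A and PDE7B and in 3 of 4 for PDE3A and PDE10A, and the lowest in 4 of 4 for PDE2A and 3 of 4 for PDE4D. Number 11 had the highest value in 4 of 4 groups for PDE3B, PDE4D and PDE8A. The differences at 10 µM in numbers 6, 8 and 11 were 2.70, 2.14 and 2.51 for PDE4B, 1.5, 1.1 and 1.1 for PDE4D, 3.33, 1.85 and 2.33 for PDE3A, and 1.98, 1.40 and 1.35 for PDE7B. On this stabilised scale the difference was largest in number 6 for these 4 genes, which was not tested. For PDE7B in number 8, with 44 reads at 10 µM and 1 in vehicle, the ratio of reads scaled for depth was 47.5 (exact 95% Clopper-Pearson interval 8.1 to 1920, for counting error only), above the count folds of 9.1 in number 6 and 9.03 in number 11.

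The genes whose values over the 12 libraries were most like those of PDE4B, by Pearson correlation, were DNER, a Notch-like membrane protein (0.992), DUSP1, a MAP kinase phosphatase (0.987), and PAPPA, a protease of IGF-binding proteins (0.985). For PDE4D they were SLC39A9, a zinc transporter (0.987), EPAS1, a hypoxia-inducible transcription factor (0.980), and SLC45A4 (0.979). For PDE3A they were ADAMTS12, a secreted protease (0.994), SIPA1L2 (0.991) and KCNE3, a potassium channel subunit (0.989). Among the 10 genes, PDE3A was most like PDE7B (0.909), and PDE4D correlated with PDE8A at 0.925 and with PDE4B at 0.899. The points share their libraries, 4 dose groups and 3 label numbers, so these are descriptions.

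Other genes of the pathway were counted from fixed lists at 10 µM against vehicle, where 11.2% of all genes were called higher and 11.4% lower (18.7% and 19.7% with the block). Of 10 tested genes of cAMP production 2 rose and 1 fell (with the block 4 and 1): the G protein subunit GNAL by 0.49 (limma adjusted p = 0.0141) and the adenylyl cyclase ADCY6 by 0.30 (0.0148) were higher, and the cyclase ADCY3 was lower by 0.82 (0.00309). Of 13 tested effectors 1 rose and 2 fell (3 and 3 with the block). The cAMP-binding membrane protein POPDC3 rose by 0.91 (0.00203), and the regulatory subunits of protein kinase A PRKAR2B and PRKAR2A fell by 0.78 (0.00317) and 0.23 (0.0246). Of 3 export pumps ABCC4, which carries cAMP out of cells, fell by 0.37 (0.00913) and the others did not pass. Of 12 partners that bind or anchor phosphodiesterases 0 rose and 3 fell (2 and 4 with the block), namely RACK1 and ARRB2, which bind PDE4 enzymes, by 0.63 (0.00949) and 0.56 (0.00941), and PDE4DIP, an anchor of PDE4D, by 0.50 (0.0372). Of 22 CREB factors and feedback targets outside the phosphodiesterases 4 rose and 3 fell (7 and 4 with the block), with DUSP1 (1.80, 1.04e-06) and the growth factor BDNF (1.68, 6.89e-05) higher and the kinase SGK1 (-1.03, 0.000137) and the nuclear receptor NR4A1 (-0.82, 0.0044) lower. The others were CREM, a gene of the CREB family (0.53, 0.0125), and the G protein regulator RGS2 (1.38, 0.0118; 0.82 without number 6), which were higher, and the CREB coactivator CRTC3 (-0.29, 0.0246), which was lower. PDE4DIP, CREM, RGS2 and CRTC3 are named after their values were seen. Of 2 tested cGMP-specific phosphodiesterases 0 passed. The median differences of these lists at 10 µM were 0.07 for production, 0.00 for effectors, -0.14 for export, -0.01 for partners, 0.07 for CREB factors and targets, and 0.01 for the cGMP-specific genes. Without number 8, and without number 11, the calls of all of these named genes except DUSP1, BDNF and SGK1 were lost. Those of GNAL, ADCY6, CREM, PRKAR2A, CRTC3 and PDE4DIP were also lost without single libraries: GNAL without vehicle 11 (0.0602) or 10 µM library 6 (0.0513), ADCY6 without 10 µM library 6 (0.0531), CREM without 10 µM library 11 (0.0513), and PRKAR2A without vehicle 8 (0.0526) or 11 (0.0977) or 10 µM library 6 (0.0565) or 8 (0.0912). CRTC3 was lost without vehicle 8 (0.0817) or 11 (0.0589) or 10 µM library 6 (0.0503) or 8 (0.081). PDE4DIP was lost without vehicle 8 (0.0722) or 11 (0.14), 1 µM library 11 (0.0507), 5 µM library 8 (0.0525), or 10 µM library 8 (0.126) or 11 (0.122). With 2 groups only, limma also lost GNAL (adjusted p = 0.0581), ADCY6 (0.0654), PRKAR2A (0.106), CRTC3 (0.0796) and PDE4DIP (0.0931). PRKAR2A, deposited in steps of 0.1, had an SD of 0 at 1 and 5 µM, so rounding limits its measured spread.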

How the data were processed

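RNA of 12 HEYA8 libraries (4 groups of 3) was measured by ribosome-depleted total RNA sequencing, per the labels' protocols. The authors deposited variance-stabilised values on a log2 scale. Per the submitters' processing notes, DESeq2 was used with the human build GRCh38 (hg38). The aligner, counter, strand setting and annotation release are not given in the sources used here. Of 21211 entries 21207 were genes, 99.8% of them matched to a symbol. The 4 other rows were left out of all tests. They held 36.2% to 41.4% of reads (no feature), 19.3% to 25.6% (mapped to several places), 0.793% to 1.82% (unaligned) and 2.40% to 2.94% (ambiguous). Because the authors scaled the libraries to each other, all changes are relative to the other genes.

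Normalised counts and reads were computed by inverting the stabilising curve, whose floor was fitted at 4.864. Of 82667 low values 99.7% matched, after rounding to the deposited 0.01, a whole number of reads, against 29.4% with the depths swapped between libraries. Reads on genes were 24.0 to 48.6 megareads per library, and from a value of 10 up recovered counts carry a rounding step of 0.1 (30.9% of values). An interval for counting error is given only for PDE7B in number 8, and means carry the SD between libraries.

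The main test was limma 3.58.1 (R 4.3.3) with a variance trend on the stabilised values of all 12 libraries and 4 groups, for 17767 genes more than 1 above the lowest value in at least 3 libraries. It was two-sided with Benjamini-Hochberg adjustment over all genes per contrast, and it was tested on simulated data. All adjusted p-values come from limma. Whether label numbers pair the libraries was checked on deviations from group means. The 18 same-number pairs correlated at 0.316 to 0.777 and the 36 other pairs at -0.711 to 0.569, and these ranges overlapped. Number 6 stood apart, with correlations of 0.449 to 0.777 within it and -0.711 to -0.287 with the other numbers. Pairs of number 8 with number 11 correlated at 0.199 to 0.569. This overlapped the pairs within number 8 (0.316 to 0.506) and within number 11 (0.399 to 0.619). Deviations of the 3 libraries of a group cancel out by construction. With number 6 apart, numbers 8 and 11 must then deviate together and against it. The overlap therefore cannot decide whether numbers 8 and 11 mark pairs. Values from the fit with the number as a block are printed where they change a call. Alternatives were no filter, a stricter filter (3 above the lowest value), quantile normalisation, a median shift, voom on recovered counts, 2 groups at a time, and leaving out each library or label number.

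The 10 genes, the lists and the motifs were chosen with earlier results of these data known. Named genes were the 10, the other cAMP-hydrolysing phosphodiesterases, of each other list the 2 largest rises and 2 largest falls at 10 µM that passed, and the 3 genes most correlated with PDE4B, PDE4D and PDE3A. DNER, EPAS1 and the others of that last kind are descriptions. Figures were drawn with matplotlib 3.10.9 in Python 3.11.15.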

Additional observations from a re-analysis of the deposited data

How the results depend on the processing

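Direction and side of the threshold held for PDE4B at 5 and 10 µM under every alternative run. Of the single-gene values over all alternatives 1288 kept both, 116 lost the threshold, 56 gained it and 12 changed sign. The 12 changes of sign, none in a called value, all came from leaving out libraries: without them PDE3B at 1 µM ranged from -0.055 to 0.05, PDE1C from -0.2033 to 0.0167 at 1 µM and from -0.31 to 0.045 at 5 µM, and PDE8B from -0.025 to 0.155 at 1 µM and from -0.14 to 0.08 at 10 µM. The cause of the changes below was not tested except where named.

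Counts of the 10 genes called higher moved as follows. At 1 µM (1 higher) the block gave 5, the stricter filter 2, quantile normalisation 2, voom 2 and voom with the block 6. At 5 µM (4 higher) the block and voom with the block gave 7. At 10 µM (5 higher) the stricter filter gave 3. From 1 to 5 µM (1 higher) the block and voom with the block gave 3 and 2 groups only gave 0. From 1 to 10 µM (2 higher) the block gave 4, voom with the block 5, and the stricter filter, voom and 2 groups only 1 each. Counts called lower (1 at each dose) were 0 at 1, 5 and 10 µM with the stricter filter, 0 at 1 µM with 2 groups only, and 2 at 5 µM with the block, quantile normalisation and voom with the block. The stricter filter leaves PDE3A, PDE3B, PDE7B and PDE11A untested. Call changes of single genes under the block stand in the report; it changed no other call of the 10 genes. PDE7B at 10 µM was lost with voom (adjusted p = 0.0561) and with 2 groups only (0.0546), as was PDE3A from 1 to 10 µM (0.0582 and 0.0661), and with 2 groups only PDE11A at 1 µM (0.0811) and PDE4B from 1 to 5 µM (0.077).

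Over all genes the main fit, the block, voom with the block and 2 groups only called 319, 2135, 2120 and 48 at 1 µM, 2684, 5436, 5363 and 1601 at 5 µM, 4015, 6824, 6589 and 2553 at 10 µM, 55, 922, 1041 and 12 from 1 to 5 µM, and 837, 3713, 3713 and 263 from 1 to 10 µM. From 5 to 10 µM the block called 1 and voom with the block 16, against 0. Leaving out libraries or label numbers gave 2 to 2173 calls at 1 µM, 137 to 4939 at 5 µM, 599 to 5935 at 10 µM, 0 to 529 from 1 to 5 µM and 0 to 2123 from 1 to 10 µM. Of the 10 genes, 0 to 4, 1 to 7 and 2 to 6 were then higher at 1, 5 and 10 µM, 0 to 2 from 1 to 5 µM and 0 to 3 from 1 to 10 µM, and 0 to 1, 0 to 2 and 1 to 1 lower at 1, 5 and 10 µM. PDE3A in vehicle (4 to 7 reads), PDE7B in vehicle (1 to 16) and PDE11A at 10 µM (3 to 7) are limited by depth.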
